A study of Mus musculus with 8 samples.

Results

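The mast cell genes described here were Cpa3, Cma1, Tpsb2, Mcpt4, Kit, Fcer1a, Ms4a2 and Gata2. These 8 of 37018 genes and transcripts measured were taken by name, as known genes of mast cells. They were represented by 9 probes, and where a gene had several probes the brightest was used. The cells were adherent peritoneal cells of C57BL/6 mice, labelled as peritoneal macrophages. Peritoneal cells were plated, nonadherent cells were washed away after a day, and the rest were left unstimulated or were exposed to lipopolysaccharide (LPS) at 1 μg/ml for 1, 4 or 24 h. WT littermates were compared with LysMCre-fur(fl/fl) mice, in which Cre driven from the Lyz2 (LysM) locus deletes the floxed fur gene for the proprotein convertase FURIN in myeloid cells (KO). For each time point KO and WT RNA were hybridized together on a 2-colour Agilent array, with 2 biological replicates per time point, so that 8 arrays gave 16 channels. Neither age and sex nor pooling of animals is given in the sources used here, and the cells were not purified by a mast cell or macrophage marker.

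Mast cells are resident cells of connective tissue and of serous cavities, and are recognised by granules filled with proteases, proteoglycan and histamine. Their growth and survival depend on KIT, the receptor for stem cell factor, and antigen bound to IgE activates them through the high-affinity receptor FcεRI. The connective tissue type, which is found in the peritoneal cavity, contains chymases, tryptase and carboxypeptidase A, and its identity is maintained by transcription factors that include GATA2.

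The DNA before the transcription start was read for the GATA sequence, since Gata2, a factor that binds this sequence, is one of the 8 genes. RefSeq promoters (GRCm38.p6) matched 7 of the 8 genes, and Tpsb2 had no entry. The letters AGATAA or TGATAA, on either strand (TTATCT or TTATCA), occurred in the 250 bases before the start of 4 of these 7 genes, namely Cpa3, Mcpt4, Fcer1a and Ms4a2, or in 4 of their 9 promoters, since Kit and Gata2 have 2 each, and 16.6% of 32851 mouse promoters of this length held a match. The windows of the 3 genes with 1 match each and a measurable level are shown with the match in capitals, 5′ to 3′ on the strand of the gene, which was the minus strand in each. The Cpa3 window was chr3:20242182-20242431, the Mcpt4 window was chr14:56062311-56062560 and the Fcer1a window was chr1:173227230-173227479.
Cpa3: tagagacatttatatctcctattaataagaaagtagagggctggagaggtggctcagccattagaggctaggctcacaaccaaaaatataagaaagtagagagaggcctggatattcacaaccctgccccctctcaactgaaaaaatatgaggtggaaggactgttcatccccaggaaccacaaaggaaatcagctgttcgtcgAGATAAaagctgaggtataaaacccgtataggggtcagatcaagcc
Mcpt4: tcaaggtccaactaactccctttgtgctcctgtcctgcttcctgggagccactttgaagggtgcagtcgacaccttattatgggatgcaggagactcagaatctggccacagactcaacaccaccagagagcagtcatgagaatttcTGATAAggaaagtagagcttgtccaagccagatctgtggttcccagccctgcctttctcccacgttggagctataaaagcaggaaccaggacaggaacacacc
Fcer1a: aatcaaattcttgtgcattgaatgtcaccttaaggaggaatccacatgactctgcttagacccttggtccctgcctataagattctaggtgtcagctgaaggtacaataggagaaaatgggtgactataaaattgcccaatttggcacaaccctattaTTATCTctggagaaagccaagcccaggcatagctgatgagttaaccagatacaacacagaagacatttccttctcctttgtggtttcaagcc
Relative to the start, the match began at position -46 in Cpa3, at -103 in Mcpt4 and at -92 in Fcer1a, where it lay on the opposite strand. The windows of Cma1, Kit and Gata2 did not contain these letters. A match describes the sequence only, and binding was not measured.

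Each array had 62976 spots, and between 43.8% and 51.3% of gene spots were well above background per channel (median 47.2%). All arrays came from 1 slide and 1 scan. KO RNA carried Cy5 in replicate 1 and Cy3 in replicate 2 at every time point, so replicate number and dye orientation cannot be told apart. The labels' growth protocol names 4 h of stimulation for every sample, whereas the titles give separate times, which were used here. Lyz2, whose locus carries the Cre, was lower in the KO channel on 8 of 8 arrays, with log2 KO/WT ratios from -1.85 to -0.74. The Furin probe was lower in KO on 6 of 8 arrays, but at 4 h its log2 KO/WT ratio was 0.00 in replicate 1 and 0.33 in replicate 2, so the 4 h channels are called labelled KO in what follows, and means over time points include them. Whether this probe lies in the deleted part of the gene is not given in the sources used here.

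Of the 8 mast cell genes, 7 were well above background in 16 of 16 channels. The exception was Ms4a2, which encodes the β chain of FcεRI and was well above background in 0 of 16 channels. Its log2 intensity lay between 5.82 and 6.50, so its differences carry no information and the results rest on the other 7 genes, although counts and medians over the 8 include it. The label of the cultures named macrophages, and the macrophage markers Adgre1, Csf1r, Lyz2, Mertk and Itgam were also above background in 16 of 16 channels. In bulk RNA, fewer mast cells and less RNA of a gene per cell cannot be told apart.

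**Figure D1:**
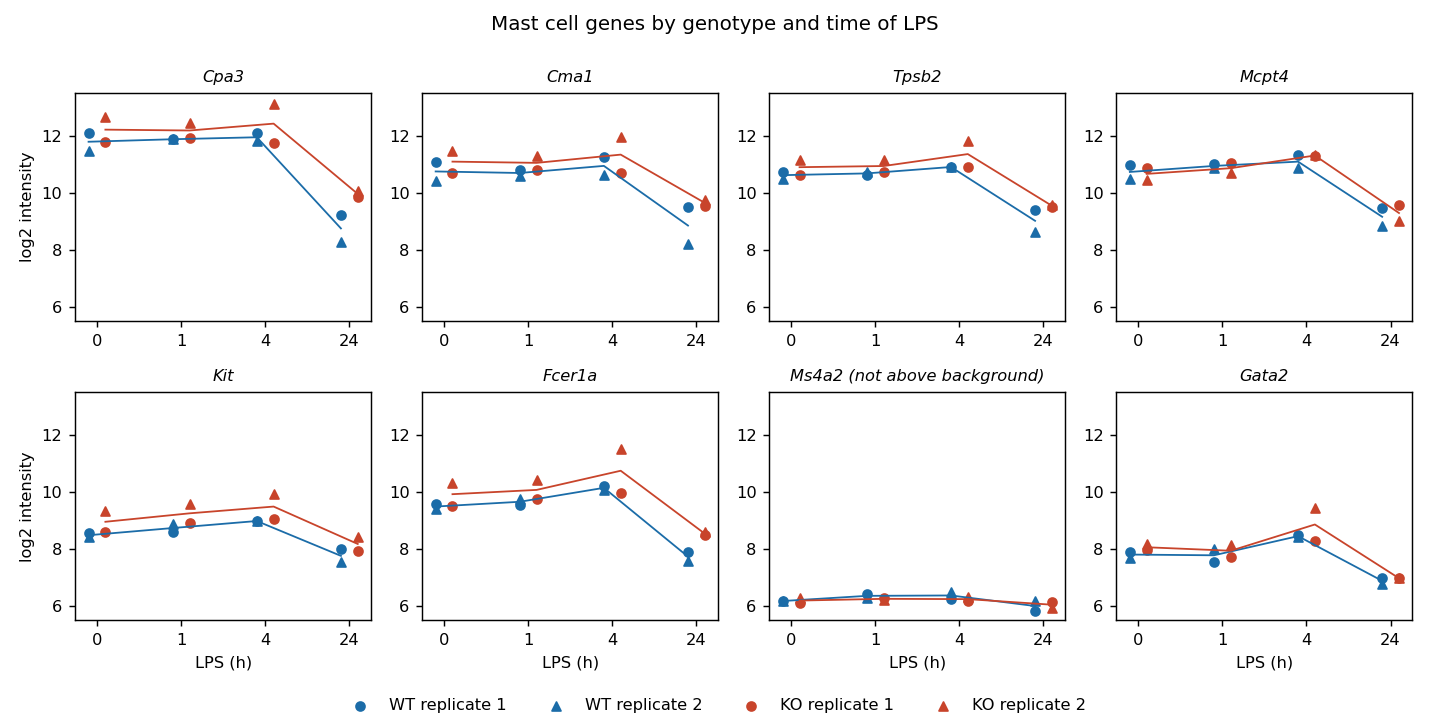
Log2 intensity of the 8 mast cell genes (y axis, the same in each panel) in unstimulated cells (0 h) and after 1, 4 and 24 h of LPS (x axis, not to scale). Points are single channels, circles for replicate 1 and triangles for replicate 2, blue for WT and red for KO, and lines join the means of 2 replicates. Levels at 24 h lie below all earlier levels of the same genotype in each panel except that of Ms4a2, and the 4 h triangle of the channel labelled KO stands highest for Cpa3 at 13.11.

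Mast cell transcripts fell after 24 h of LPS in both genotypes. Of the 8 genes, 7 were lower than in unstimulated cells in WT and 7 in KO (limma, adjusted p below 0.05 over all genes tested), whereas 18.3% of all genes tested were lower in WT and 17.2% in KO. The median log2 difference of the 8 genes was -1.59 in WT and -1.36 in KO, against -0.0148 and -0.0133 for all genes tested. All genes tested include probes not above background, where a change is hard to call. The shares given here and below are therefore not those of detected genes. Both 24 h levels were below all 6 earlier levels of the same genotype in 7 of the 8 genes in WT, where 11.2% of all genes showed this, and in 7 of the 8 in KO, where 10.5% did. The comparisons of 1, 4 and 24 h share the unstimulated channels. No culture was labelled as kept for 24 h without LPS, so LPS and time in culture cannot be told apart.

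The 4 granule proteases had 24 h levels between 12.2% and 39.1% of the unstimulated ones. Cpa3 encodes carboxypeptidase A3, a metalloprotease stored in mast cell granules. Its log2 intensity in WT was 12.10 in replicate 1 and 11.48 in replicate 2 without LPS, 11.88 in both after 1 h, 12.09 and 11.80 after 4 h, and 9.24 and 8.27 after 24 h. In KO it was 11.78 and 12.65 without LPS, 11.93 and 12.45 after 1 h and 9.87 and 10.06 after 24 h, with 11.75 and 13.11 in the 4 h channels labelled KO. The 24 h levels were the lowest in each genotype, and those of KO were above those of WT in both replicates. Relative to unstimulated cells, Cpa3 fell by 3.04 ± 0.24 (SE) on the log2 scale in WT (limma, adjusted p = 2.92e-07), or 8.21-fold. In KO it fell by 2.25 ± 0.24 (adjusted p = 5.79e-06), or 4.77-fold.

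Cma1 encodes a chymase of connective tissue mast cells. Its log2 intensity in WT was 11.09 and 10.42 in unstimulated replicates 1 and 2, and 9.50 and 8.20 after 24 h of LPS. In KO the unstimulated values were 10.71 and 11.48 and the 24 h values 9.55 and 9.75. Between these times, WT had 10.80 and 10.60 at 1 h and 11.26 and 10.64 at 4 h, and KO had 10.80 and 11.30 at 1 h, with 10.71 and 11.97 in the 4 h channels labelled KO. The ranges at 0 and 24 h did not overlap in either genotype. Cma1 fell by 1.90 ± 0.23 in WT (limma, adjusted p = 1.74e-05), or 3.72-fold, and by 1.45 ± 0.23 in KO (adjusted p = 0.000216), or 2.72-fold.

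Mcpt4 encodes a further chymase of the same granules. Its level went from 10.99 and 10.48 to 9.47 and 8.85 in WT, and from 10.88 and 10.45 to 9.58 and 9.0028 in KO. The 1 h levels were 11.001 and 10.89 in WT and 11.05 and 10.68 in KO, and the 4 h levels were 11.31 and 10.88 in WT and 11.30 and 11.32 in the channels labelled KO. At 0 and 24 h replicate 1 was above replicate 2 in both genotypes. The log2 difference was -1.57 ± 0.23 in WT (limma, adjusted p = 8.2e-05) and -1.37 ± 0.23 in KO (adjusted p = 0.000283).

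Tpsb2 encodes a tryptase and was measured by 2 probes. With the brighter one, its level went from 10.74 and 10.50 to 9.41 and 8.63 in WT and from 10.64 and 11.16 to 9.51 and 9.59 in KO. After 1 h it was 10.62 and 10.74 in WT and 10.74 and 11.14 in KO, and after 4 h it was 10.91 and 10.90 in WT and 10.90 and 11.82 in the channels labelled KO. Every 24 h level was below every earlier one. The log2 difference was -1.60 ± 0.19 in WT (limma, adjusted p = 1.57e-05) and -1.35 ± 0.19 in KO (adjusted p = 7.93e-05). With the dimmer probe, which was examined after the main values were known, the changes in replicates 1 and 2 were -1.34 and -2.17 in WT and -1.08 and -1.82 in KO. Both probes fell in each replicate. The mast cell proteases belong to families of similar sequence, and how far each probe also binds a relative was not tested.

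Among the receptors, Fcer1a, which encodes the IgE-binding α chain of FcεRI, showed the larger fall. In WT its log2 intensity was 9.59 and 9.39 without LPS and 7.90 and 7.57 after 24 h. In KO it was 9.52 and 10.33 without LPS and 8.49 and 8.58 after 24 h. In between, WT had 9.55 and 9.76 at 1 h and 10.22 and 10.08 at 4 h, and KO had 9.74 and 10.41 at 1 h, with 9.98 and 11.51 in the 4 h channels labelled KO. The 24 h levels were the lowest in each genotype. The difference was -1.76 ± 0.29 in WT (limma, adjusted p = 0.000241), or 3.38-fold lower, and -1.39 ± 0.29 in KO (adjusted p = 0.00174), or 2.61-fold lower.

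Kit, the gene of the stem cell factor receptor, fell less. Its level went from 8.55 and 8.42 to 7.99 and 7.53 in WT, and from 8.58 and 9.33 to 7.94 and 8.42 in KO. After 1 h it was 8.58 and 8.89 in WT and 8.93 and 9.58 in KO, and after 4 h it was 8.9964 and 8.97 in WT and 9.07 and 9.91 in the channels labelled KO. The 0 and 24 h ranges did not overlap in either genotype, but in KO they lay close together. The difference was -0.72 ± 0.20 in WT (limma, adjusted p = 0.0121) and -0.78 ± 0.20 in KO (adjusted p = 0.00807). The call, but not the direction, depended on single arrays. With each array left out, the difference stayed between -0.84 and -0.61 in WT and between -0.97 and -0.58 in KO, and Kit fell in each replicate of both genotypes. Without unstimulated replicate 2 the adjusted p was 0.111 in WT and 0.131 in KO, without 24 h replicate 1 it was 0.0516 and 0.0773, and without 24 h replicate 2 it was 0.0953 in WT.

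The transcription factor gene Gata2 fell to levels not far above background at 24 h in both genotypes. Its log2 intensity was 7.91 and 7.70 in unstimulated WT and 7.95 and 8.18 in unstimulated KO. After 24 h it was 6.9951 and 6.78 in WT and 6.97 and 6.99 in KO. The levels at 1 h were 7.56 and 8.01 in WT and 7.73 and 8.15 in KO, and those at 4 h were 8.48 and 8.43 in WT and 8.29 and 9.43 in the channels labelled KO. The ranges at 0 and 24 h did not overlap. The difference was -0.92 ± 0.25 in WT (limma, adjusted p = 0.00934) and -1.09 ± 0.25 in KO (adjusted p = 0.00326). In WT the adjusted p rose to between 0.0515 and 0.0706 when either unstimulated or either 24 h array was left out, while the difference stayed between -0.95 and -0.90. With the processed signals of Feature Extraction in place of the corrected median signals, the difference was -1.87 in WT and -1.85 in KO.

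**Figure D2:**
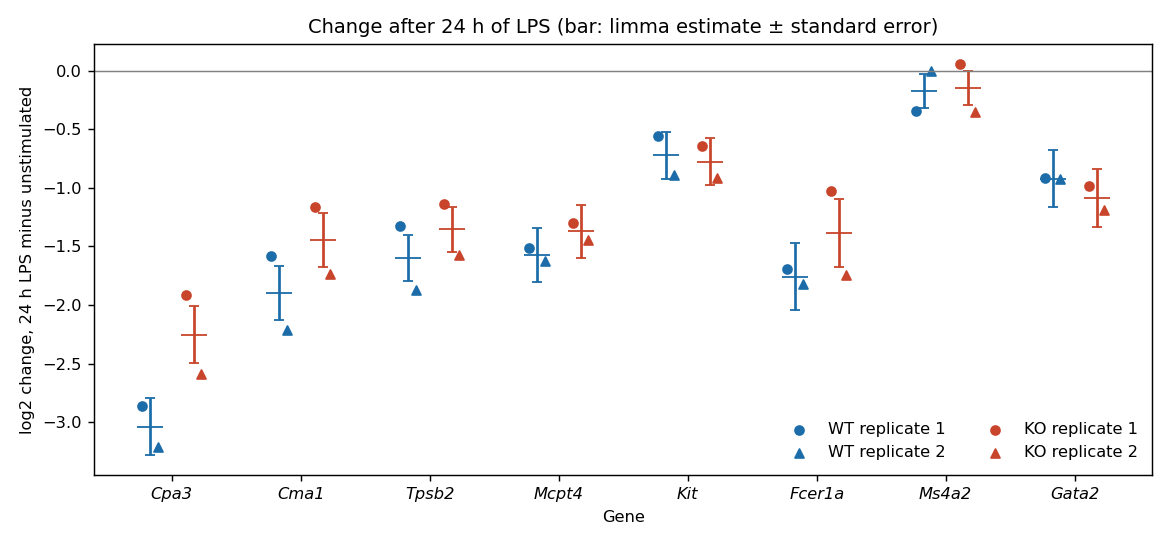
Log2 change of each mast cell gene from unstimulated cells to 24 h of LPS (y axis) in WT (blue) and KO (red). Circles and triangles are replicates 1 and 2, and the horizontal marks with bars are limma estimates with their standard errors. Every point of the 7 detected genes lies below 0, and Cpa3 has the lowest points, at -2.86 and -3.21 in WT.

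No difference in the fall between genotypes was called. The KO/WT ratio changed from unstimulated to 24 h in 0 of the 8 genes (limma, 0% of all genes tested), with 0 of the 8 at an unadjusted p below 0.05, where 3.32% of all genes were. With the replicate number as a term it was also 0, where 0.211% of all genes were called and 0.0866% were called higher. The point estimate was 0.78 ± 0.63 on the log2 scale for Cpa3 and lay between -0.16 and 0.45 for the other 7 genes. The standard error for Cpa3 was 0.22 with the replicate number as a term, and its adjusted p was then 0.3.

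Earlier in the response none of these falls was called. After 1 h, 0 of the 8 genes were called in WT, where 10.3% of all genes were called in either direction, and 0 in KO, where 9.61% were, with 0 of the 8 at an unadjusted p below 0.05 in either genotype, where 20.7% of all genes were. The log2 differences at 1 h lay between -0.05 and 0.25 in WT and between -0.12 and 0.30 in KO.

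After 4 h the estimates of the 7 detected genes were above 0. In WT they were between 0.16 and 0.66, 3 of the 8 had an unadjusted p below 0.05, as 42.8% of all genes did, and 0 passed the adjusted threshold, while 16.6% of all genes were called higher. In the channels labelled KO, 3 of the 8 genes were higher, against 17.4% of all genes called higher. These were Gata2, with 0.80 ± 0.25 (limma, adjusted p = 0.0187), Fcer1a, with 0.82 ± 0.29 (adjusted p = 0.0364), and Mcpt4, with 0.64 ± 0.23 (adjusted p = 0.0379). The channel labelled KO of replicate 2 carried much of the first 2 of these values. There Gata2 rose from 8.18 to 9.43 and Fcer1a from 10.33 to 11.51, whereas in replicate 1 Gata2 went from 7.95 to 8.29 and Fcer1a from 9.52 to 9.98. Without the 4 h array of replicate 2, 0 of the 8 genes were called, and the differences were 0.28 for Gata2 and 0.22 for Fcer1a. Mcpt4 rose by 0.41 in replicate 1 and by 0.88 in replicate 2, and its difference was between 0.40 and 0.88 with single arrays left out, the lowest without unstimulated replicate 2 (adjusted p = 0.323). With a term for the replicate number beside that for the dye, Kit and Gata2 passed in WT (adjusted p = 0.0163 and 0.0384) and Kit joined the 3 genes in the channels labelled KO (adjusted p = 0.0106), where 17% of all genes were called higher in WT and 17.7% in those labelled KO. With loess within arrays alone, 0 of the 8 were called in the channels labelled KO.

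In each of the 7 detected genes the mean level was highest at 4 h and lowest at 24 h in both genotypes, where 9.47% of all genes showed this order in WT and 10.1% in KO. Both genotypes came from the same arrays. Counting a gene in each genotype as an order, 14 in all, the levels at 4 h overlapped with those of the next time point in 8 of the 14, and the middle levels overlapped with each other in 13 of the 14. The level next above that of 24 h overlapped with it in 0 of the 14. Of the steps between neighbouring levels, the step down to 24 h was thus the one without overlap in all 14.

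The other mast cell lists did not move as 1 block at 24 h. Of 9 measured genes for granule contents and histamine, 4 were lower and 2 higher in WT, and 3 were lower and 2 higher in KO. Of all 36927 genes tested, 5399 were higher and 6744 lower in WT, and 5194 were higher and 6341 lower in KO, against which the counts of this and the following lists are to be read. Slc18a2, the vesicular monoamine transporter that loads histamine into granules, fell by 0.72 in WT (limma, adjusted p = 0.0103) and by 0.84 in KO (adjusted p = 0.00408). The tryptase gene Tpsg1 fell by 0.76 (adjusted p = 0.00076) and 0.66 (adjusted p = 0.00226). The 2 genes that rose were Hdc, the histamine-forming decarboxylase, and Srgn, the core protein of granule proteoglycan, both of which are also expressed by macrophages. Hdc went from 9.90 and 9.46 to 13.23 and 13.53 in WT, a log2 difference of 3.70 (adjusted p = 2.61e-08), after a level of 15.07 and 14.50 at 4 h. Mcpt1, Mcpt2 and Mcpt9, which encode proteases of mucosal and uterine mast cells, were above background in 0 of 16 channels.

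Of 7 further surface receptor genes, 5 were lower in WT and 4 in KO. Il1rl1, which encodes the receptor for interleukin 33, fell by 2.03 in WT (limma, adjusted p = 0.000246) and by 1.43 in KO (adjusted p = 0.00385). Mrgprb2, the receptor for cationic secretagogues on connective tissue mast cells, was well above background on both unstimulated arrays in each genotype and on 0 of 2 arrays at 24 h. Fcer1g, the γ chain that FcεRI shares with Fc receptors of macrophages, was higher in KO by 0.40 (adjusted p = 0.014) and had a difference of 0.25 in WT (adjusted p = 0.121).

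Of 5 genes for lipid mediators, 5 were lower in both genotypes, with median differences of -1.77 in WT and -2.49 in KO. Alox5 and Ltc4s, which act in leukotriene synthesis in mast cells and in macrophages alike, changed by -3.53 and -2.84 in WT. These genes were already lower at 4 h, when the median was -2.33 in WT, and in this they differed in timing from the 8 mast cell genes. Of 11 genes that signal downstream of FcεRI, 8 were lower and 1 higher in WT, and 6 were lower and 1 higher in KO. Lyn, a kinase that phosphorylates the receptor, was the gene that rose, by 1.15 in WT. Of 8 further transcription factor genes, 3 were lower and 1 higher in WT and 4 were lower and 1 higher in KO. Among them Mitf, a factor required for mast cell development, fell by 1.44 in WT (limma, adjusted p = 3.44e-06). Its level in unstimulated WT was 13.61 and 13.90, against 12.10 and 11.48 for Cpa3. Which cells of the cultures the Mitf RNA came from was not tested. Gata1 had a difference of -0.14 in WT (adjusted p = 0.553). Runx1, a factor shared by many blood cells, rose by 1.34 in WT (adjusted p = 7.21e-07).

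Markers of several other cell types in the cultures also fell, and some rose. Of 5 macrophage markers, 4 were lower at 24 h in both genotypes, with a median difference of -2.03 in WT and -2.33 in KO. Their summed intensity was between 488738 and 591933 in unstimulated WT and between 170122 and 174458 at 24 h. Of 3 markers of large peritoneal macrophages, 3 were lower, and Timd4, a phosphatidylserine receptor of resident macrophages, fell by 5.30 in WT. Of 5 T and NK cell markers, 3 were lower in both genotypes, and the remaining Ncr1 and Klrb1c were above background in 0 of 16 channels. Of 5 B cell markers, 2 were lower in WT and 1 in KO. Of 3 neutrophil markers, 1 was higher (S100a8, by 3.77 in WT and 4.50 in KO) and 1 lower in each genotype, and of 4 eosinophil markers 1 was higher (Ccr3, by 0.67 and 0.75) and 1 lower in each. S100a9, Epx and Prg2 of these lists were above background in 0 of 16 channels. Of 7 stromal and mesothelial markers, 0 were called in either genotype, but most were near background (Pdgfra was above it in 0 of 16 channels, Upk3b in 1, Wt1 in 3 and Krt19 in 6), and their summed intensity was between 636 and 654 in unstimulated WT and between 629 and 699 at 24 h. The summed intensity of the 8 mast cell genes was between 8395 and 11760 in unstimulated WT and between 2018 and 3398 at 24 h, and in KO it was between 10113 and 15258 and between 3978 and 4122. The part of cell numbers or of other cell types in the fall of the mast cell genes was not tested.

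The basophil, a blood cell that shares FcεRI with mast cells, was examined by 3 markers. Mcpt8, its defining protease, was above background in 0 of 16 channels. Prss34 was above background in all 16, with a 24 h difference of -0.37 in WT (limma, adjusted p = 0.197). The third, Cd200r3, is shared with mast cells, was above background in 13 of 16 and was the 1 marker of the 3 called lower at 24 h in WT (adjusted p = 0.0422), with 0 called in KO.

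**Figure D3:**
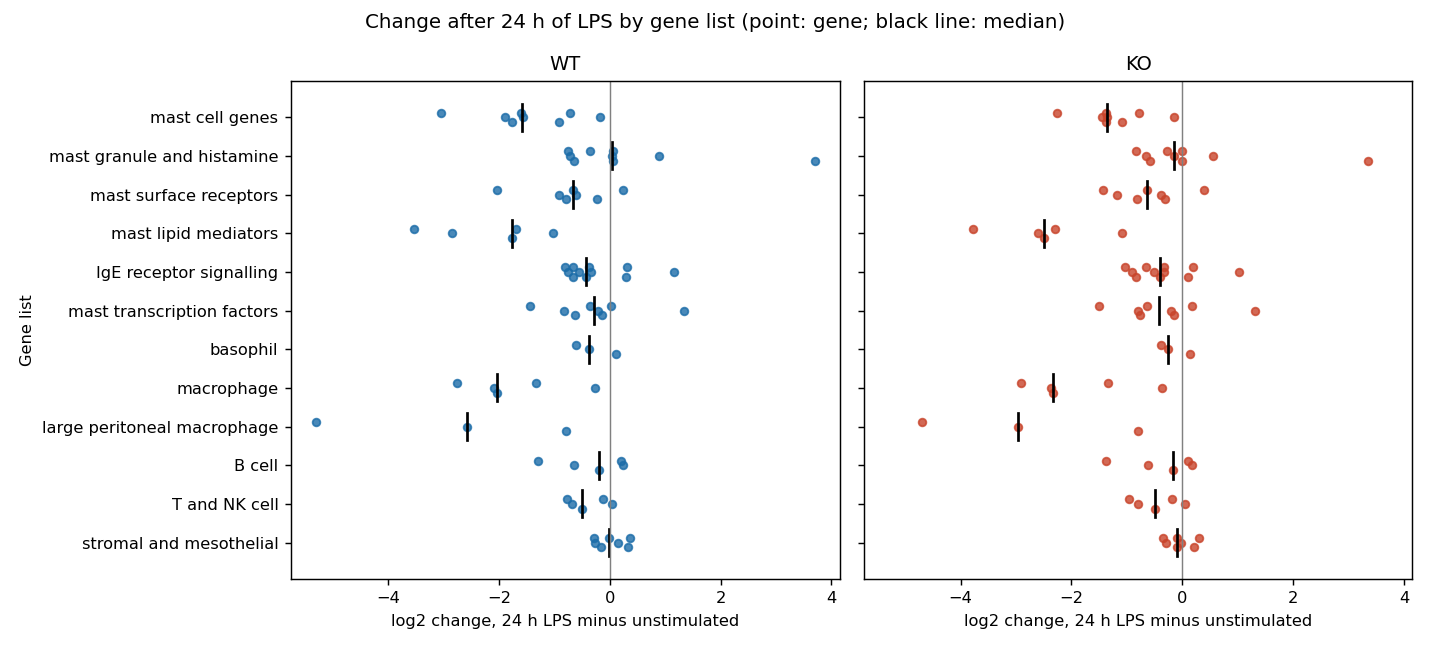
Log2 change from unstimulated cells to 24 h of LPS (x axis) for each gene of 12 lists (rows), in WT (left) and KO (right). Points are genes and black lines are medians of a list. The median of the mast cell genes is -1.59 in WT and -1.36 in KO, to the right of those of both macrophage lists and of the lipid mediator list, and to the left of the remaining lists.

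The comparison of KO with WT asked whether mast cell transcripts differed where FURIN was deleted in myeloid cells. At each of the 4 time points 0 of the 8 genes were called (limma). Of all genes, 0% were called in unstimulated cells and at 1 h, 0.0108% at 4 h and 0.0217% at 24 h. At an unadjusted p below 0.05 the count was 0 of 8 without LPS, where 5.79% of all genes passed, 0 after 1 h of LPS (5.56%) and 0 after 4 h (4.3%). After 24 h it was 1, where 3.39% of all genes passed. The gene at 24 h was Cpa3, with a log2 KO/WT ratio of 1.21 ± 0.45 (limma, adjusted p = 1). Averaged over the time points, 7 of the 8 ratios were above 0 and 0 genes were called, where 0.595% of all genes were, and 4 had an unadjusted p below 0.05, as 3942 of all 36947 genes did.

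This result depended on the spread between replicates. With the replicate number, which is also the dye orientation, as a term in the fit, 5 of the 8 genes were called with a higher mean level in KO, where 2.81% of all genes were called higher and 6.06% in either direction. Kit had 0.48 ± 0.05 (limma with the replicate block, adjusted p = 8e-04, 0.224 without it). Cpa3 had 0.60 ± 0.08 (adjusted p = 0.00152, 0.348 without it), and Fcer1a had 0.56 ± 0.09 (adjusted p = 0.00433, 0.26 without it). Tpsb2 had 0.38 ± 0.06 (adjusted p = 0.00331, 0.326 without it), and Cma1 had 0.47 ± 0.08 (adjusted p = 0.00535, 0.592 without it). With the block, Cpa3 also passed at 24 h (adjusted p = 0.00592, where 0.29% of all genes were called higher and 0.585% in either direction). Standard errors and p-values with the block rest on scatter across the 4 time points of the same 2 replicates. They do not measure spread among biological replicates, so these calls describe the 2 replicates only. Gata2 had 0.23 ± 0.08 (adjusted p = 0.144) and Mcpt4 0.05 ± 0.06 (adjusted p = 0.746) with the block, and neither passed in either fit. Leaving out single arrays without the block moved the mean ratio of Cma1 between 0.24 and 0.71, that of Fcer1a between 0.36 and 0.77, that of Cpa3 between 0.40 and 0.81 and that of Gata2 between 0.08 and 0.38, with 0 of the 8 called in each case. The lowest of these values were those without 4 h replicate 2.

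The replicates differed in level. For Cpa3 the log2 KO/WT ratio of replicate 1 was -0.32 without LPS and then 0.05, -0.35 and 0.63 with LPS for 1, 4 and 24 h, and that of replicate 2 was 1.17, 0.57, 1.30 and 1.79. In the same order Kit had 0.03, 0.34, 0.07 and -0.05 in replicate 1 and 0.91, 0.69, 0.94 and 0.89 in replicate 2. In replicate 1 these ratios lay on both sides of 0, and in replicate 2 they were all above it. The mean ratio over time points was 0.0035 in replicate 1 and 1.21 in replicate 2 for Cpa3, -0.22 and 1.16 for Cma1, 0.025 and 0.73 for Tpsb2, 0.097 and 0.86 for Kit, and 0.12 and 1.01 for Fcer1a. The higher level in KO of the 5 genes called with the block thus came mainly from replicate 2, that is from 1 dye orientation, and Cma1 was on average lower in KO in replicate 1. Mcpt4, another granule protease, had -0.10, 0.05, -0.02 and 0.11 in replicate 1 and -0.03, -0.20, 0.45 and 0.15 in replicate 2. Its replicates overlapped.

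Over the 8 genes, replicate 2 was above replicate 1 at all 4 time points in 5 genes, which 16.4% of all genes showed. All 4 ratios of replicate 2 were above all 4 of replicate 1 in 4 genes, namely Cma1, Tpsb2, Kit and Fcer1a, against 8.39% of all genes. All 4 ratios of replicate 2 were above 0 in 6 genes, against 14.7%. The difference between replicates in the KO/WT ratio was itself called in 5 of the 8 genes, all in the direction of replicate 2 above replicate 1, where 5.21% of all genes were called in that direction, 4.7% in the other and 9.91% in either. Replicate 1 minus replicate 2 was -1.38 ± 0.15 for Cma1 (limma, adjusted p = 0.000379), -1.20 ± 0.15 for Cpa3 (0.000998) and -0.89 ± 0.17 for Fcer1a (0.0108). It was -0.76 ± 0.11 for Kit (0.00186) and -0.71 ± 0.11 for Tpsb2 (0.00332). These p-values set 1 replicate against 1 other, with the 4 time points as repeats, and do not measure spread among biological replicates. With the processed signals of Feature Extraction, Tpsb2 (-0.74, adjusted p = 0.0607), Kit (-0.88, adjusted p = 0.0582) and Fcer1a (-0.87, adjusted p = 0.0949) no longer passed, at differences of similar size. Each of the 5 differences was larger in size than the mean KO/WT ratio of the same gene.

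Other transcripts moved with the replicate as well. Genes of the further mast cell lists, not all of them particular to mast cells, differed in both directions. Mrgprb1 (limma, adjusted p = 0.0112) and Mrgprb2 (adjusted p = 0.000291) differed in the direction of the 5 genes. They were above background in 14 and 11 of 16 channels, so their sizes are not exact. Slc18a2 (-0.60, adjusted p = 0.0164) and Ndst2 (-0.39, adjusted p = 0.0294) also differed in that direction. Mitf (0.74, adjusted p = 0.00186), Stat5b (0.47, adjusted p = 0.00935) and Lat (0.70, adjusted p = 0.00552) differed in the opposite one. Of 3 genes of steroid synthesis, 2 differed in the direction of the mast cell genes and by more than any of them. Cyp11a1 had -3.55 (adjusted p = 1.17e-07), and its level was between 10.696 and 11.02 in WT replicate 1 but between 7.41 and 7.83 in WT replicate 2. The summed intensity of the 3 genes was between 2080 and 4437 in WT and 524 and 841 in KO in replicate 1, and between 334 and 554 in WT and 794 and 1208 in KO in replicate 2. Of 5 T and NK cell markers, 2 differed in the opposite direction (Cd3g 0.83, adjusted p = 0.00143), and their summed intensity was between 2943 and 5213 in KO and 2599 and 3728 in WT in replicate 1, and between 2836 and 4723 and between 2922 and 4890 in replicate 2. Of 3 markers of large peritoneal macrophages, Timd4 (0.54, adjusted p = 0.0224) differed in this direction and Gata6 (-0.62, adjusted p = 0.0197) in that of the mast cell genes, and of 5 B cell markers Cd79a differed (0.52, adjusted p = 0.0373). Of 7 stromal and mesothelial markers and of 5 macrophage markers, 0 were called. The mast cell genes summed to between 3978 and 11467 in KO and 3398 and 13416 in WT in replicate 1, and to between 4122 and 23647 and between 2018 and 10971 in replicate 2. The part of cell content, animal or dye in the difference between replicates was not tested.

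**Figure D4:**
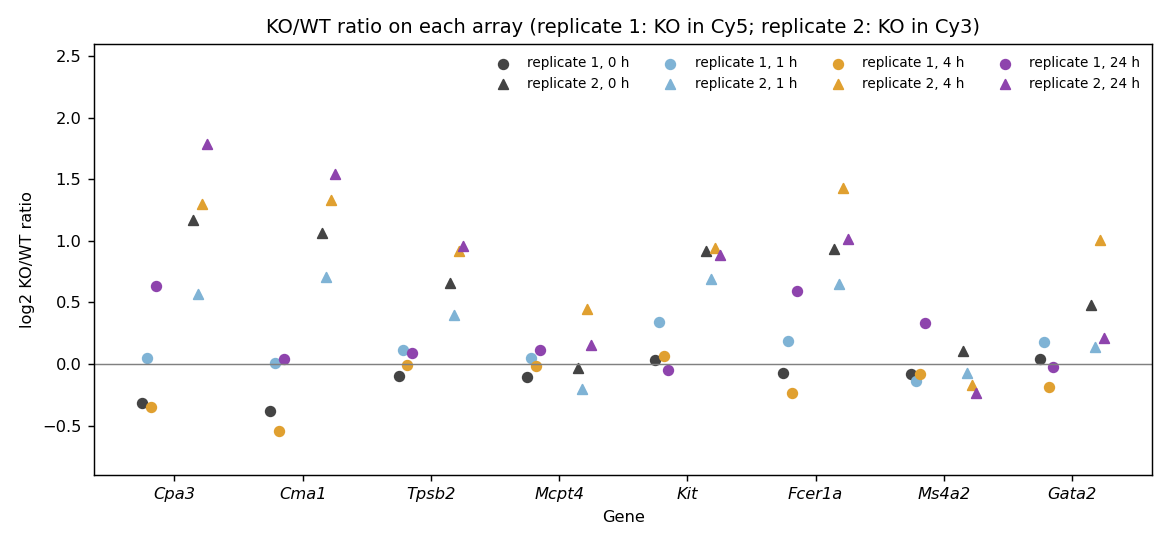
Log2 KO/WT ratio (y axis) of each mast cell gene on each of the 8 arrays, circles for replicate 1 and triangles for replicate 2, with colours for the hours of LPS. Triangles lie above circles of the same colour at all 4 times for Cpa3, Cma1, Tpsb2, Kit and Fcer1a. The circles and triangles together run from -0.20 to 0.45 for Mcpt4 and from -0.24 to 0.33 for Ms4a2. For these genes the points lie on both sides of 0 in each replicate.

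Genes outside the 8 were ranked by the likeness of their profile over the 16 channels to the mean profile of the 7 detected genes, among 20828 named genes. The channels share arrays, and the large fall at 24 h enters every such correlation. Slc6a4, the serotonin transporter, had the highest Pearson r, 0.99, but was well above background in only 12 of the 16 channels. Others among the 10 most alike were Il1rl1 (0.97), Kcne3, a subunit of potassium channels (0.97), Cd2ap (0.96), Cdk13 (0.96), Tpsg1 (0.96), Slc18a2 (0.94) and Taok1 (0.93). Without the 24 h channels, a setting chosen after seeing the data, Slc6a4 stayed at rank 1 with r = 0.98, and Slc18a2 had rank 2 (0.95), Il1rl1 rank 9 (0.91) and Kcne3 rank 10 (0.90), whereas Cdk13 had rank 175 and Taok1 rank 197. The macrophage genes Timd4 and Mertk, which fell at 24 h too, had r of 0.84 and 0.83 over 16 channels and of -0.72 and -0.39 over the 12 without 24 h.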

How the data were processed

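The authors scanned 2-colour Agilent mouse arrays and deposited Feature Extraction 10.7.3 intensity values per spot (median signal and background in Cy3 and Cy5, and processed signals). They also deposited a matrix of log2 Cy5/Cy3 ratios, normalized in limma by loess and quantile, whose sign and centring fit the scanner ratios and which served as an alternative. Here median signals were background-corrected (normexp, offset 50), normalized by loess within and quantile between arrays (limma 3.58.1, R 4.3.3), and reduced to the brightest probe per gene. Of 55681 gene probes, 27509 were named for 20887 genes through accessions. Genes with mean log2 intensity below 6 were dropped, leaving 36947; the number 6 is that of the authors' methods, but after the offset used here it removed few genes, and probes not above background such as that of Ms4a2 passed. Log2 KO/WT ratios were fitted with 1 coefficient per time point (lmFit, eBayes). Differences from unstimulated cells were fitted per channel with a dye term (lmscFit, within-spot correlation 0.427 from 5000 genes). This fit used the 36927 with values in all channels. P-values were adjusted by Benjamini-Hochberg over all genes tested, and limma gives every p printed. The number of arrays limits the precision.

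Same-numbered arrays deviated together (r of 0.476 to 0.68 over 6 pairs of time points), so the replicate number was added as a block in a further fit. Genes named are the 8, the lists of mast cell and other cell type genes, Furin and Lyz2, and the 10 genes most like the detected members, some of which are not reported here. The members and lists were chosen with earlier results of these data known. Tpsab1, Cd68 and Ly6g had no matched probe. Alternatives were other normalizations, background correction, filters, probe averaging, processed signals, the deposited matrix, the replicate block, the methods' t-test and leaving out each array. The fits were tested on simulated data.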

Additional observations from a re-analysis of the deposited data

How the results depend on the processing

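The count of 7 of 8 genes lower at 24 h held in WT and in KO under every other normalization, background correction, filter and signal tried, and with each array left out it was between 5 and 7 in WT and between 6 and 7 in KO, where Kit and Gata2 lost the call in WT and Kit in KO. The replicate block pairs arrays of the same number. With the block, KO/WT calls went from 0 to 1 at 24 h and from 0 to 5 for the mean over time points. The error behind these KO/WT calls leaves out spread among biological replicates. The 4 h count in WT went from 0 to 2 with the block, which changed no other count by over 1.5 times. The 4 h count in WT was 1 under Aquantile, 2 with the stricter background filter and between 0 and 2 with arrays left out. In the 4 h channels labelled KO it was 0 instead of 3 with loess alone or processed signals, and between 0 and 4 with arrays left out. The replicate difference was called in 2 rather than 5 genes with processed signals, at differences of similar size, and in 4 to 5 with arrays left out. The mean KO/WT ratio of Mcpt4 lay between -0.0081 and 0.11 with single arrays left out, below 0 only without 4 h replicate 2; the cause was not tested. That of Ms4a2 lay between -0.11 and 0.029, but its probe was not above background, so its sign carries no information. No scaling moved the median of all genes by more than 0.0744. The methods' t-test called 0 genes of the 8 at each time point after Benjamini-Hochberg adjustment.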

Other observations

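Growth factor genes for mast cells were measured in the same cultures. Kitl, the ligand of KIT, had a log2 intensity of 7.49 and 7.31 in unstimulated WT, 8.18 and 7.98 after 4 h of LPS and 6.99 and 7.01 after 24 h. It rose by 0.68 at 4 h (limma, adjusted p = 0.000122) and fell by 0.41 at 24 h (adjusted p = 0.00782) in WT. In the channels labelled KO it rose by 0.55 at 4 h (adjusted p = 0.000665), and its 24 h difference in KO was -0.29 (adjusted p = 0.0529). Il33, the ligand of the receptor encoded by Il1rl1, was well above background on 0 of 2 unstimulated arrays and on 2 of 2 arrays at 4 h and at 24 h in both genotypes. Il9 was above background in 0 of 16 channels.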
